A study of Mus musculus with 48 samples.

Results

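Bulk RNA-seq of the mouse substantia nigra (SN) was used to follow 10 classical target genes of the hypoxia-inducible factors (HIFs) that lie outside glycolysis and angiogenesis: *Ankrd37*, *Bnip3*, *Bnip3l*, *Ddit4*, *Higd1a*, *Kdm3a*, *Mxi1*, *Ndrg1*, *P4ha1* and *P4ha2*. The 10 genes were taken as known HIF targets and matched by symbol. All 10 were present among the 19601 genes of the batch-corrected tables, and all 10 passed the filter on low counts that left 14839 genes for testing. Male C57Bl/6J mice, 121 days old at surgery, received a unilateral injection of α-synuclein into the striatum, either as preformed fibrils (PFFs), which seed aggregation of the endogenous protein, or as the monomer, which serves as the control. They then breathed 21% or 11% O2 in chambers, and the SN was dissected between 90 and 98 days after the surgery. Each of the 4 groups held 12 mice, and the analysis covered the 42 mice that the authors kept: 11 monomer and 12 PFF mice at 21% O2, and 9 monomer and 10 PFF mice at 11% O2. The sources differ on the exposure, since the deposited design text gives 6 weeks at 21% before 6 weeks at 11% O2, whereas the sample protocol and the paper place the mice in hypoxia from the injection to the collection at 12 weeks. Every group carried injected α-synuclein, and no uninjected mice were analysed here.

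HIFs are transcription factors whose α subunits are hydroxylated and degraded while O2 is plentiful. When O2 falls the subunits accumulate, pair with ARNT and bind a short core motif near their target genes. Besides glycolysis and blood vessel growth, the targets act on mitochondria (*Bnip3*, *Bnip3l* and *Higd1a*), on growth control (*Ddit4*, *Mxi1* and *Ndrg1*), on chromatin (*Kdm3a*) and on collagen (*P4ha1* and *P4ha2*). *Ankrd37* encodes an ankyrin repeat protein.

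The 10 genes did not move together after weeks at 11% O2. *Ankrd37* rose in monomer mice (1.58-fold) and in PFF mice (1.68-fold). *P4ha2* (0.698-fold), *P4ha1* (0.739-fold) and *Ddit4* (0.738-fold) fell in monomer mice, and none of these 3 was called in PFF mice. The call of *Ddit4* did not hold in the fits of all batches to the counts before correction. In batch 1, the only harvest batch with monomer mice at both O2 levels, *Ddit4* alone was called. The log2 changes there were -0.62 for *Ddit4*, -0.47 for *P4ha2* and -0.25 for *P4ha1*. *Bnip3*, *Bnip3l*, *Higd1a*, *Kdm3a*, *Mxi1* and *Ndrg1* were called in neither monomer nor PFF mice. Their 95% intervals lay between -0.12 and 0.22 on the log2 scale in monomer mice. Genes were called with edgeR's quasi-likelihood test when the Benjamini-Hochberg adjusted p over all 14839 genes was under 0.05 and the log2 fold change exceeded 0.25 in size. In monomer mice 4 of the 10 genes were called, 1 higher and 3 lower, where 7.23% of all genes tested were called, 4.68% higher and 2.55% lower. In PFF mice 1 of 10 was called, and it was higher, where 0.58% of all genes were called, 0.438% higher and 0.142% lower. Averaged over both injections, *Ankrd37* was higher and *P4ha2* lower, 2 of 10 genes beside 3.39% of all genes, 2.33% higher and 1.06% lower. No gene of the 10 separated its groups without overlap at 11% against 21% O2 in monomer or PFF mice or with PFF at 21% or 11% O2, which 0.391%, 0.0876%, 0.0404% and 0% of all genes tested did.

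**Figure D1:**
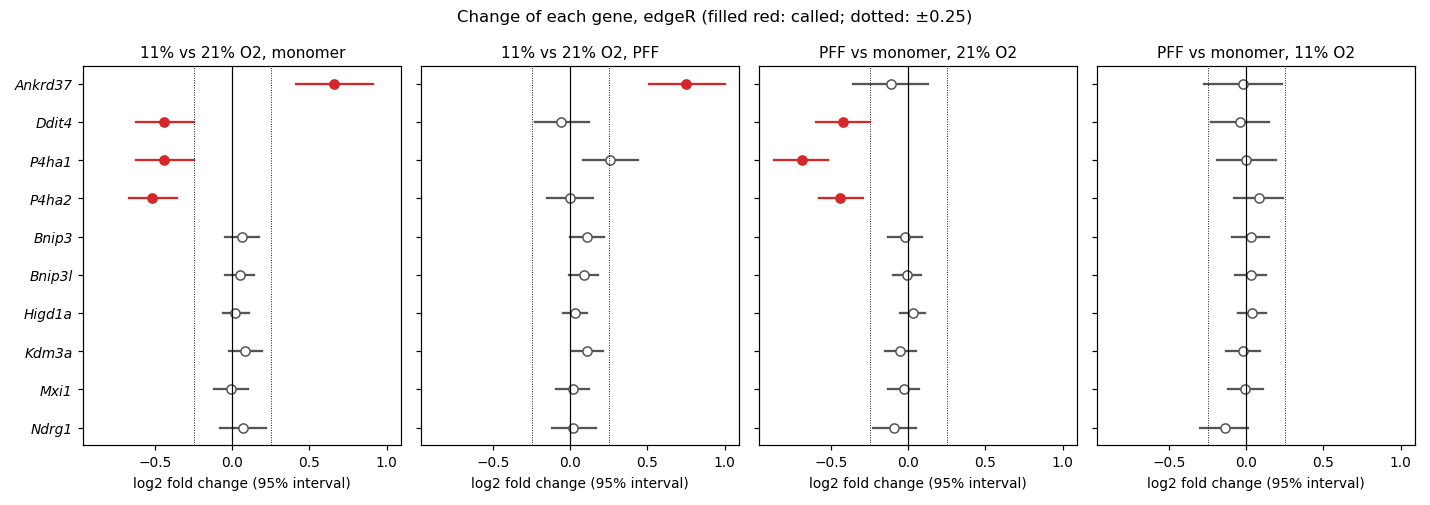
Log2 fold change (x axis) of each of the 10 genes (y axis) in 4 comparisons, with its 95% interval; filled red points were called and dotted lines mark 0.25 in either direction. *Ankrd37* stands to the right at 11% O2 in monomer and PFF mice, whereas *Ddit4*, *P4ha1* and *P4ha2* stand to the left at 11% O2 in monomer mice and in PFF mice at 21% O2.

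Depth and tissue identity bear on all of these values. Each mouse had 12902996 to 17120921 counts on genes before correction. The neuronal marker *Th*, the rate-limiting enzyme of dopamine synthesis, averaged 571.3 to 647.5 TPM (transcript abundance scaled for length and for library total) in the 4 groups, and all 8 dopaminergic markers were detected in each group. *Th* varied widely between mice (SD of 259.7 to 323.3 TPM), whereas the myelin gene *Mbp* averaged 2592 to 2817 TPM, and neither was called in any comparison of O2 or injection. There were 3 batches, defined by the date of harvest. Monomer mice at 11% O2 were missing from batch 2 and those at 21% O2 from batch 3, so that the O2 levels can be compared in monomer mice of a single batch only in batch 1, with 4 mice a group. In such bulk tissue, fewer cells of a type and less RNA per cell cannot be told apart.

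Ranked by mean TPM over the 42 mice, the 10 genes spanned a wide range. *Bnip3l* stood first at 196.3 TPM, above 94.2% of the genes tested. It was followed by *Ddit4* (158.6 TPM), *Bnip3* (157.0 TPM), *Ndrg1* (152.4 TPM) and *Higd1a* (146.3 TPM), whose ranges over mice overlapped. *P4ha1* (63.9 TPM), *Mxi1* (36.5 TPM) and *Kdm3a* (26.9 TPM) came next. *P4ha2* (14.2 TPM) and *Ankrd37* (12.2 TPM) were lowest, and *Ankrd37* stood above 33.7% of the genes tested. Its corrected counts of 43 to 145 per mouse were the smallest of the 10, and those of the other 9 started at 246.

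**Figure D2:**
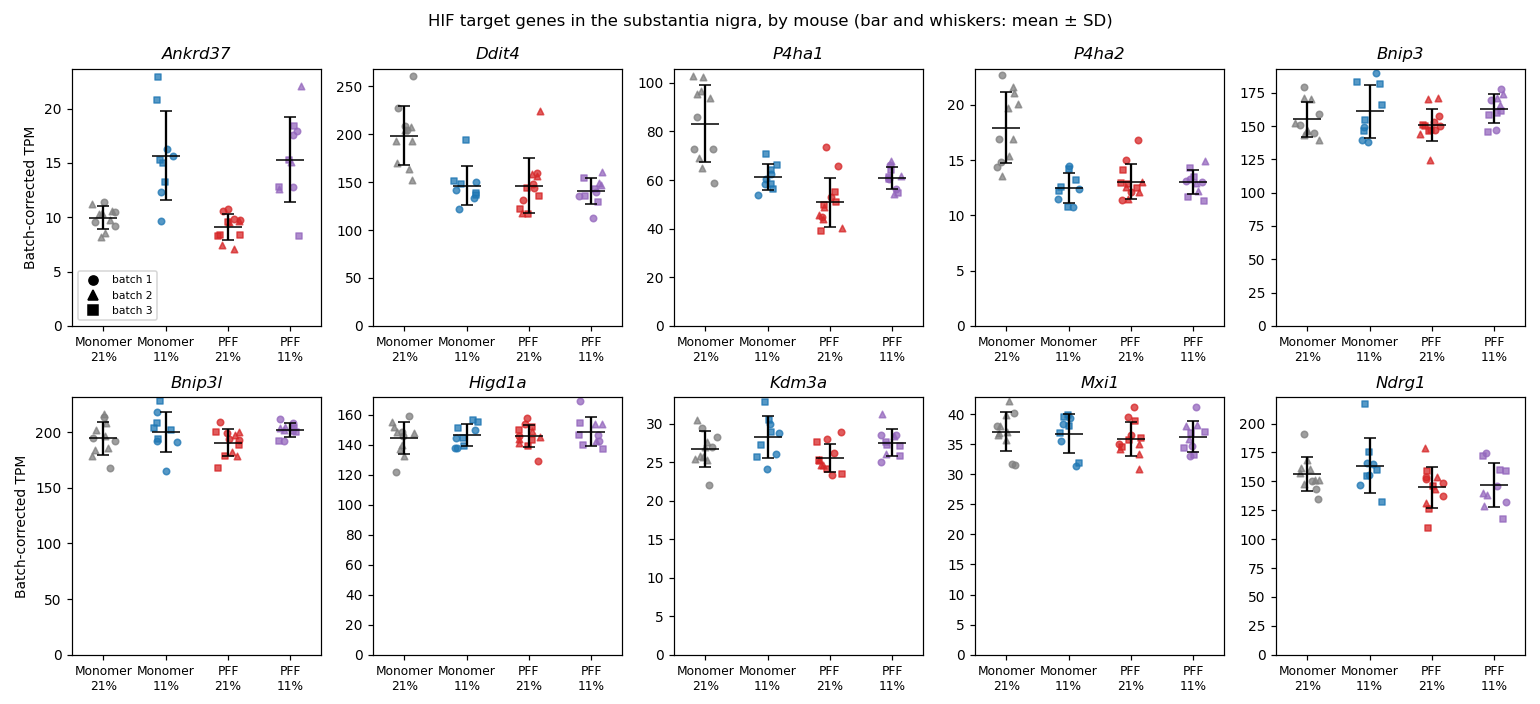
Batch-corrected TPM (y axis, from 0) of the 10 genes in each of the 42 mice, by injection and O2 (x axis); marker shapes are harvest batches, and bars with whiskers are means ± SD. *Ankrd37* is higher in both 11% groups, *Ddit4*, *P4ha1* and *P4ha2* are higher in monomer mice at 21% O2 than in the other groups, and the groups of the other 6 genes largely overlap.

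The promoters of the genes that were called, with that of *Bnip3*, which was not called, are shown to set the core motif beside the response. HIF dimers bind the core ACGTG or GCGTG. These letters were searched on both strands in the 250 bases before each start in the RefSeq promoter table (build GRCm38.p6), and matches are in capitals. An annotated exon of GENCODE vM21 covers part of some windows, and the bases from it to the start were left out of the print: 17 bases for *Ankrd37*, 64 for *Ddit4* and 13 for *Bnip3*. The *Ankrd37* stretch is chr8:45999868-46000100 on the minus strand, that of *Ddit4* chr10:59951835-59952020 on the minus strand, that of *P4ha1* chr10:59323046-59323295 on the plus strand, that of *P4ha2* chr11:54100674-54100923 on the plus strand and that of *Bnip3* chr7:138909520-138909756 on the minus strand. Those of *Ankrd37* and *P4ha2* lie within the annotated span of their gene, in none of its exons.
Ankrd37: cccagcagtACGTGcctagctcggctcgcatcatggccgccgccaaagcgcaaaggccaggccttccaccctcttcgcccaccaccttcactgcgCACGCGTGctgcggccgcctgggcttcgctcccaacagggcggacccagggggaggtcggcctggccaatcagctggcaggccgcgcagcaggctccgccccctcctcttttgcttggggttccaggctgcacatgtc
Ddit4: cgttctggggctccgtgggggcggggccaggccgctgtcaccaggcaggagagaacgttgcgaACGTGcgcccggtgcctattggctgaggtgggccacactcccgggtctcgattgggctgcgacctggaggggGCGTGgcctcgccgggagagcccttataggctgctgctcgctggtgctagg
P4ha1: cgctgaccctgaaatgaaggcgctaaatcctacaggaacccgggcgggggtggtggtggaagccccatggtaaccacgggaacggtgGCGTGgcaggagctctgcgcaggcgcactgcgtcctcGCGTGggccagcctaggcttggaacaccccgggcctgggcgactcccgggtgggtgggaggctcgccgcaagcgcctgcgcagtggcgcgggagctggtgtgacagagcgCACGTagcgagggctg
P4ha2: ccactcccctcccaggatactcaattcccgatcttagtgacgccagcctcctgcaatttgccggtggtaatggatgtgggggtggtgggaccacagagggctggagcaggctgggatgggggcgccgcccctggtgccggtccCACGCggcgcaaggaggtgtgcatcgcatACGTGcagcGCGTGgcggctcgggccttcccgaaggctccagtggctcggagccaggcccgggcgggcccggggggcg
Bnip3: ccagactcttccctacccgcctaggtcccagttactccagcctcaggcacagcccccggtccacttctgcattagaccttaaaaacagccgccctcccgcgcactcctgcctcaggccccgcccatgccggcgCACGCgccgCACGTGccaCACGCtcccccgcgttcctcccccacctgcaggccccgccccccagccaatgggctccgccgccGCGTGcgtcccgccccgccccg

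Of the 10 genes, 8 had an entry in the table, with 12 windows in all, and each of the 8 held a match in at least 1 window. A match was found in 38.6% of all 32851 windows of this length, 16.6% with ACGTG and 28.2% with GCGTG. These shares count windows, whereas the 8 counts genes, some of which have several windows, so they are not like measures. The 10 genes were also chosen as known HIF targets. The full window of *Ankrd37* held 4 matches, of which 1 lies in the bases left out and 2 overlap in CACGCGTG. *Bnip3*, which was not called, held 5, of which 2 are the strands of a single CACGTG, the E-box, a motif in 6.02% of all windows. *P4ha1* and *P4ha2* held 3 each, while *Ddit4* and *Higd1a* held 2 each. Over all windows, 6.58% held 3 or more matches and 1.01% held 5 or more. *Kdm3a* has 3 windows, with 1, 0 and 0 matches, and *Mxi1* has 3, with 0, 1 and 1. In these windows the count of matches did not order the 8 genes by their response. Bases outside the windows were not searched, and a match describes the sequence and is not a bound site.

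*Ankrd37* (ENSMUSG00000050914.16, chr8:45996902-46005707, GRCm38, minus strand) was the gene that rose at 11% O2 with either injection. In monomer mice at 21% O2 its level was lowest at 8.15, had a median of 10.3 and was highest at 11.4 TPM (n = 11). At 11% O2 the lowest monomer mouse had 9.61, the median was 15.3 and the highest 22.9 TPM (n = 9). The groups overlapped only through the lowest mouse at 11% O2, as 8 of 9 hypoxic mice stood above every monomer mouse at 21% O2. The log2 fold change was 0.66 ± 0.126 (SE; edgeR adjusted p = 0.000327).

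PFF mice gave a similar picture for *Ankrd37*. At 21% O2 the lowest, median and highest levels were 7.05, 9.59 and 10.8 TPM (n = 12), and at 11% O2 they were 8.25, 15.2 and 22.1 TPM (n = 10). Of the 10 hypoxic PFF mice, 9 were above every PFF mouse at 21% O2. The log2 fold change was 0.75 ± 0.121 (SE; edgeR adjusted p = 0.000185). The change in PFF mice minus that in monomer mice was 0.09 on the log2 scale (95% interval -0.26 to 0.44; edgeR adjusted p = 0.864), so a difference between the injections was not detected. The spread rose with the level: the SD was 1.03 TPM in monomer and 1.18 TPM in PFF mice at 21% O2, and 4.1 and 3.9 TPM at 11% O2.

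The order of the groups for *Ankrd37* was PFF at 21% (9.11 TPM on average), monomer at 21% (9.95 TPM), PFF at 11% (15.3 TPM) and monomer at 11% O2 (15.7 TPM). The neighbours that share an O2 level did not differ beyond their spread. Within batches, from the counts before correction, the monomer mice of batch 1 gave a log2 change of 0.40 at 11% O2. The PFF mice gave 0.64 in batch 1, 1.00 in batch 2 and 0.66 in batch 3. The change was positive in each, although no batch alone called it (edgeR adjusted p of 0.226 in monomer mice, and from 0.0556 to 0.845 in PFF mice). In batch 2 the 3 hypoxic PFF mice had 10.9, 13 and 18.6 TPM before correction, above the 6.1 to 8.16 TPM of the 4 PFF mice at 21% O2. With so few mice a lack of overlap is frequent, and 9.84% of 14755 genes showed it in this comparison.

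Overlapping genes and cell type markers that could bear on this value are given here. The exons of *Ankrd37* share 57 bases with those of *Ufsp2* and 349 bases, 22.7% of its exonic length, with those of *Lrp2bp*, both on the other strand, and the counting used no strand. Reads within the shared bases cannot be told apart by gene in such counting, so the levels of these genes do not measure them. *Lrp2bp* averaged 0.719 to 0.885 TPM in the 4 groups, well below *Ankrd37*, and was not called (log2 fold change of 0.26 ± 0.197 in monomer and 0.21 ± 0.187 in PFF mice). *Ufsp2* changed by -0.04 and -0.03 on the log2 scale and was not called. Several cell types' markers were also higher at 11% O2. Of the endothelial markers 7 of 8 were called in monomer and 1 of 8 in PFF mice, with *Cldn5*, a tight junction gene, 0.74 and 0.47 higher on the log2 scale. Their summed level ran from 286.9 to 388.7 and from 372.9 to 638.4 TPM in monomer mice at 21% and 11% O2, and from 254.0 to 437.2 and from 389.3 to 509.9 TPM in PFF mice, and none of the 8 was at 0. All 5 pericyte markers were called in monomer and 2 of 5 in PFF mice, with medians of 0.575 and 0.339. All 5 red cell genes were called in monomer mice (median 1.32) and none in PFF mice (median 0.791, with 5 at an unadjusted p under 0.05 by edgeR and none called by DESeq2). The summed level of the red cell genes ran from 513.8 to 1404 and from 1058 to 5795 TPM in monomer mice at 21% and 11% O2, and from 383.1 to 2409 and from 1104 to 4972 TPM in PFF mice. The part of these cells in the rise of *Ankrd37* was not tested.

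The genes whose 4 group means were most like those of *Ankrd37*, each centred on its own mean, were *Ndufa4l2* (root mean square distance of 0.0425 on the log2 scale), *Thbd* (0.045) and *Ccn3* (0.0493). *Ndufa4l2*, a HIF target expressed in pericytes, was 0.66 higher at 11% O2 in monomer mice and 0.66 higher in PFF mice, and was called in both (edgeR adjusted p = 0.000635 and 0.00304). *Thbd*, the endothelial thrombin receptor thrombomodulin, and *Ccn3*, a secreted matrix-associated protein, were called only for the average over both injections, at 0.61 ± 0.151 and 0.88 ± 0.285 (edgeR adjusted p = 0.00665 and 0.0389).

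*P4ha1* and *P4ha2* encode catalytic α subunits of the collagen prolyl 4-hydroxylase, which needs O2 itself and is required for a stable collagen triple helix. *P4ha1* (ENSMUSG00000019916.14, chr10:59323296-59373304, plus strand) stood highest in monomer mice at 21% O2, with 58.9, 86 and 102.7 TPM for the lowest, median and highest mouse (n = 11). Monomer mice at 11% O2 had 54, 60.3 and 70.9 TPM (n = 9). The groups overlapped, with 4 of 9 hypoxic mice below every mouse at 21%. The log2 fold change was -0.44 ± 0.0923 (SE; edgeR adjusted p = 0.00112).

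In PFF mice *P4ha1* leaned the other way. Its lowest, median and highest levels were 38.9, 49.3 and 73.6 TPM at 21% O2 (n = 12) and 54.3, 60.8 and 67.7 TPM at 11% O2 (n = 10). The hypoxic mice lay inside the range of the mice at 21%, and the log2 fold change of 0.26 ± 0.0884 was not called (unadjusted p = 0.00544, edgeR adjusted p = 0.209). Within batches the PFF mice changed by -0.03 in batch 1, with overlap, and by 0.45 and 0.30 in batches 2 and 3, without overlap between their O2 levels, as was seen for 9.84% and 3.21% of all genes. The difference between the responses of the 2 injections passed the test: the change in PFF minus that in monomer mice was 0.70 ± 0.128 on the log2 scale (edgeR adjusted p = 0.00187). Only batch 1 holds all 4 groups. There the log2 change was -0.25 in monomer and -0.03 in PFF mice, and this batch alone did not call *P4ha1* for the difference. The 4 group means ran from 50.9 TPM (PFF, 21%) over 60.7 (PFF, 11%) and 61.3 TPM (monomer, 11%) to 83.2 TPM (monomer, 21%), and the 2 groups at 11% O2 differed by less than their SDs of 4.54 and 5.26 TPM.

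*P4ha2* (ENSMUSG00000018906.14, chr11:54100095-54131665, plus strand) had 13.6, 16.9 and 22.7 TPM for the lowest, median and highest monomer mouse at 21% O2 (n = 11). At 11% O2 these were 10.8, 12.4 and 14.5 TPM (n = 9), and 7 of the 9 mice were below every mouse at 21%. The log2 fold change was -0.52 ± 0.0771 (SE; edgeR adjusted p = 9.95e-06). In PFF mice the levels were 11.4, 12.7 and 16.8 TPM at 21% O2 (n = 12) and 11.3, 13.1 and 14.9 TPM at 11% O2 (n = 10), and these groups overlapped throughout. The change in PFF mice lay between -0.15 and 0.15 on the log2 scale (95% interval), and it exceeded that in monomer mice by 0.52 ± 0.107 (edgeR adjusted p = 0.00492). Batch 1, the only batch with every group, gave log2 changes of -0.47 in monomer and -0.11 in PFF mice. Alone it did not call *P4ha2* for this difference.

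*P4ha3*, which encodes the remaining α subunit, was not lower. It was 0.27 ± 0.082 higher on the log2 scale in monomer mice at 11% O2 (edgeR adjusted p = 0.0249) and 0.16 ± 0.0784 in PFF mice, where it was not called (adjusted p = 0.446). Of the 13 other genes of prolyl hydroxylation and collagen processing tested, *P4ha3* was the only one called at 11% O2 in monomer mice, and none was called in PFF mice by edgeR or DESeq2, with 4 at an unadjusted p under 0.05. Their median log2 fold change was 0.0242 and 0.0843 in the 2 comparisons. Of 10 fibrillar and basement membrane collagens, *Col5a2* was the only one called at 11% O2, in monomer mice (0.35 ± 0.119, and 0.01 ± 0.113 in PFF mice).

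*Ddit4* (ENSMUSG00000020108.4, chr10:59949669-59951834, minus strand) encodes REDD1, which restrains the growth kinase complex mTORC1 and is also induced by glucocorticoids. Monomer mice at 21% O2 ranged from 151.9 to 261.2 TPM, with a mean of 198.7 ± 30.4 TPM (SD, n = 11). Those at 11% O2 had 121.6, 141.9 and 194.1 TPM for the lowest, median and highest mouse (n = 9). Of the 9 hypoxic mice 8 were below every mouse at 21%, and the exception was replicate 7 with 194.1 TPM. The log2 fold change was -0.44 ± 0.0924 (SE; edgeR adjusted p = 0.0011). In the 3 fits to the counts before correction it was between -0.30 and -0.27 and was not called (adjusted p from 0.0611 to 0.107).

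In PFF mice *Ddit4* had 117.1, 143.5 and 224.0 TPM at 21% O2 (n = 12) and 112.2, 141.2 and 160.7 TPM at 11% O2 (n = 10). The groups overlapped, and the 95% interval of the log2 fold change ran from -0.23 to 0.12. The change in PFF minus that in monomer mice, 0.38 ± 0.128, was not called (edgeR adjusted p = 0.103), so a difference between the injections was not established. Averaged over both injections the log2 fold change was -0.25 ± 0.0639, with an adjusted p of 0.00907 but a size that did not pass 0.25. The paralog *Ddit4l* changed by 0.05 ± 0.134 and 0.08 ± 0.128 in monomer and PFF mice. Of 14 other mTORC1 regulators tested, *Sesn1*, a sestrin that also restrains mTORC1, was the only one called by edgeR, lower in monomer mice (-0.25 ± 0.0503, adjusted p = 0.000555), a size at the threshold that DESeq2 did not call, and it changed by -0.07 ± 0.048 in PFF mice.

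The same 3 genes were lower in PFF than in monomer mice at 21% O2, a comparison that shares the monomer mice at 21% O2 with the O2 comparison above, so that the changes are given side by side and do not count as separate evidence. *P4ha1* was 0.618-fold (log2 -0.69 ± 0.0857, edgeR adjusted p = 6.61e-07), with 10 of 12 PFF mice below every monomer mouse. *P4ha2* was 0.738-fold (log2 -0.44 ± 0.0709, edgeR adjusted p = 0.000101), with 9 of 12 below every monomer mouse. *Ddit4* was 0.746-fold (log2 -0.42 ± 0.0853, edgeR adjusted p = 0.00143), with 8 of 12 below every monomer mouse. These were 3 of 10 genes, where 3.7% of all genes tested were called, 1.41% lower and 2.29% higher, and the log2 fold changes of the other 7 lay between -0.11 and 0.03.

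At 11% O2 no gene of the 10 was called between PFF and monomer mice by edgeR or DESeq2, and none had an unadjusted p under 0.05. Over all genes tested, 0% were called (0 of 14839, with 581 at an unadjusted p under 0.05). For 8 of the 10 genes the 95% interval lay within 0.25 on the log2 scale in either direction, as it did for 67.9% of all genes tested. The exceptions were *Ankrd37*, with an interval from -0.27 to 0.23, and *Ndrg1*, from -0.30 to 0.01. For the interaction of injection and O2, *P4ha1* and *P4ha2* were called, 2 of 10 genes, both with the higher value in PFF mice, beside 2.14% of all genes tested, 1.1% higher and 1.04% lower.

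The high levels of monomer mice at 21% O2 were not spread evenly over the batches. Before correction, the 4 monomer mice of batch 1 at 21% O2 had 191.9, 194.3, 201.7 and 216.0 TPM of *Ddit4*. The other groups of batch 1 ran from 123.4 to 137.9 (monomer, 11%), from 128.4 to 142.6 (PFF, 21%) and from 113.6 to 130.8 TPM (PFF, 11%), so that the monomer mice at 21% did not overlap with them. Such a lack of overlap was found for 9.58% of all genes between the O2 levels of monomer mice and for 8.63% between the injections at 21% O2 in this batch. In batch 2 the 7 monomer mice at 21% O2 had 124.6 to 178.8 TPM and the 4 PFF mice at 21% 98.1 to 207.3 TPM, which overlapped. After correction these 7 monomer mice had 151.9 to 208.1 TPM.

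*P4ha1* showed the reverse. In batch 2 the 7 monomer mice at 21% O2 had 62.6 to 91.2 TPM before correction, above the 38.5 to 44.9 TPM of the 4 PFF mice at 21%, a separation that 5.73% of all genes showed, and the log2 change with PFF was -0.94. In batch 1 the ranges of 49.2 to 78.2 and 40.5 to 73 TPM overlapped, with a change of -0.14. *P4ha2* changed by -0.54 in batch 2 without overlap and by -0.25 in batch 1 with overlap, and *Ddit4* by -0.09 and -0.54. A test of the difference between the batches, chosen after these values were seen, gave -0.79 ± 0.206 for *P4ha1* (edgeR adjusted p = 0.0821), 0.46 ± 0.208 for *Ddit4* (adjusted p = 0.308) and -0.29 ± 0.211 for *P4ha2* (adjusted p = 0.524). It gave -0.29 ± 0.0943 for *Mxi1* (edgeR adjusted p = 0.178). None of the 10 genes passed this test, where 0.372% of 14515 genes did. For 11% against 21% O2 in monomer mice, batch 1 alone gave log2 changes of -0.62 for *Ddit4*, -0.47 for *P4ha2* and -0.25 for *P4ha1*, and called *Ddit4* only.

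**Figure D3:**
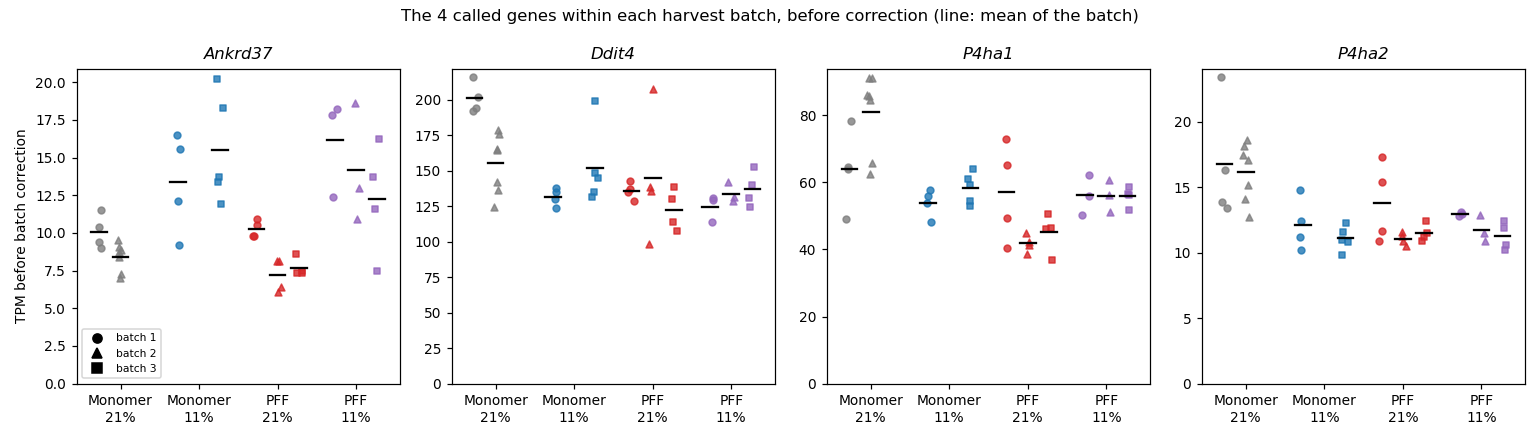
TPM before batch correction (y axis, from 0) of *Ankrd37*, *Ddit4*, *P4ha1* and *P4ha2* by group (x axis) and harvest batch (marker shape); lines are means of a batch and group. Monomer mice at 21% O2 stand apart for *Ddit4* in batch 1 and for *P4ha1* in batch 2, whereas *Ankrd37* is higher on average at 11% O2 in each batch that holds both levels.

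Heat shock genes, and part of the glucocorticoid-responsive genes, were lower between the same groups. Of 12 heat shock genes 9 were called lower at 11% O2 in monomer mice and 7 lower in PFF mice at 21% O2, among them *Dnajb1* (-0.87 and -0.71), *Hsph1* (-0.66 and -0.48) and *Hspa1a* (-2.09 and -1.60), which encode inducible chaperones. Their summed level was between 3628 and 5143 TPM in monomer mice at 21% O2, 3218 and 3760 in monomer mice at 11%, 3466 and 4282 in PFF mice at 21% and 3350 and 3778 TPM in PFF mice at 11%. The median heat shock gene changed with PFF at 21% O2 by -0.11 in batch 1 and by -0.419 in batch 2. Of 15 glucocorticoid-responsive genes 7 were called lower at 11% O2 in monomer mice, those with the smallest p being *Tsc22d3* (-0.48), *Errfi1* (-0.38) and *Per1* (-0.48), while 4 of the 15 had positive values. In PFF mice at 21% O2 6 were called lower and 1 higher, *Mt2* (0.40), named after its values were seen. Their summed level ran from 863.9 to 1385, from 827.1 to 1203, from 755.8 to 1202 and from 844.7 to 1148 TPM in the same order of groups, and overlapped between all of them. Whether these responses have a part in the levels of *Ddit4*, *P4ha1* and *P4ha2* was not tested.

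By the 4 group means, *Ddit4* was most like *Prdm8* (distance of 0.0075), *Zfp804a* (0.0118) and *Zfp750* (0.017), none of which was called. *P4ha2* was most like *Gm29695* (0.0132), *Scrt2* (0.016) and *Nptx1* (0.0217). *P4ha1* was most like *Fam78a* (0.041), *Fosl2* (0.0683) and *Tent5a* (0.0717). *Fosl2*, a subunit of the AP-1 factor, was called in the 3 comparisons that called *P4ha1*, with log2 changes of -0.58 at 11% O2 in monomer mice, -0.68 with PFF at 21% O2 and 0.79 for the interaction, and *Tent5a* was called there at -0.51, -0.60 and 0.60. *Scrt2*, a neuronal repressor, was called at -0.51, -0.39 and 0.49. The others were called in fewer of these comparisons. *Fam78a* was called only with PFF at 21% O2 (-0.56). *Gm29695* was called at 11% O2 in monomer mice (-0.49) and with PFF at 21% O2 (-0.45), but not for the interaction (edgeR adjusted p = 0.13). *Nptx1* was called in none of them.

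The mitophagy receptors *Bnip3* and *Bnip3l*, which mark mitochondria for removal and are induced strongly by acute hypoxia in many cells, were not called. *Bnip3* (chromosome 7) had 139.7, 150.8 and 179.4 TPM for the lowest, median and highest monomer mouse at 21% O2 and 138.3, 154.9 and 189.9 TPM at 11%. PFF mice had 124.4, 150.1 and 171.1 TPM at 21% and 145.4, 163.7 and 177.8 TPM at 11% O2. All 4 ranges overlapped, and the log2 fold change was 0.06 ± 0.0565 in monomer and 0.11 ± 0.0538 in PFF mice (edgeR adjusted p = 0.523 and 0.446). The 95% interval in PFF mice ran from 0.00 to 0.22 (unadjusted p = 0.043, edgeR), and that of the average over both injections from 0.01 to 0.17 (unadjusted p = 0.0318, adjusted p = 0.155).

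*Bnip3l* (chromosome 14) had 168.0, 195.0 and 216.1 TPM in monomer mice at 21% O2 and 164.6, 202.2 and 227.9 TPM at 11% O2. In PFF mice it had 167.6, 193.2 and 208.9 TPM at 21% and 191.6, 202.8 and 211.9 TPM at 11% O2, where its SD of 6.28 TPM was the smallest of the 4 groups. The ranges overlapped, and the log2 fold changes of 0.05 ± 0.0479 and 0.09 ± 0.0457 were not called. Its pseudogene *Bnip3l-ps*, which could take reads from it, averaged 10.9 TPM. Of 9 other mitophagy receptors and adaptors tested none was called in either comparison by edgeR or DESeq2, with 0 and 2 at an unadjusted p under 0.05 and median log2 fold changes of -0.0176 and -0.0187.

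*Higd1a* (chromosome 9), a mitochondrial protein that binds respiratory complexes, had the narrowest interval of the 10. Its lowest, median and highest levels were 121.7, 147.9 and 159.3 TPM in monomer mice at 21% O2 and 137.8, 144.8 and 156.8 TPM at 11%. They were 128.9, 145.8 and 157.9 TPM in PFF mice at 21% and 137.2, 146.7 and 169.2 TPM at 11% O2. The 95% interval of the log2 fold change was -0.06 to 0.11 in monomer and -0.05 to 0.11 in PFF mice. An antisense gene, *Gm47112*, shares 22.5% of its exonic bases and averaged below *Higd1a* at 0.676 to 0.755 TPM. Its paralog *Higd1b*, which is expressed in pericytes, was 0.52 ± 0.121 higher in monomer and 0.53 ± 0.116 higher in PFF mice (edgeR adjusted p = 0.00337 and 0.0118), whereas *Higd2a* changed by 0.08 and 0.06 and was not called. All 5 pericyte markers were called higher in monomer mice and 2 of 5 in PFF mice at 11% O2, with a summed level of 184.9 to 307.3 and 245.0 to 568.1 TPM in monomer and 164.7 to 392.4 and 235.2 to 334.7 TPM in PFF mice at 21% and 11% O2. Their part in the rise of *Higd1b* was not tested.

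*Kdm3a* (chromosome 6), a histone H3 lysine 9 demethylase that itself uses O2, had the smallest adjusted p of the other 6 when averaged over both injections. It had 22.1, 27 and 30.5 TPM in monomer mice at 21% O2 and 24.2, 28.8 and 32.9 TPM at 11%, and 23.3, 25.3 and 28.9 TPM in PFF mice at 21% and 25, 27.5 and 31.3 TPM at 11% O2. The ranges overlapped, and the log2 fold change was 0.08 ± 0.0521 in monomer and 0.11 ± 0.0498 in PFF mice. Averaged over both it was 0.10 ± 0.036 (edgeR adjusted p = 0.0722), with an upper bound of 0.17. Its nearest paralog *Kdm3b* changed by 0.06 and -0.01. Of 17 other JmjC-domain genes tested, *Kdm8* was called higher (0.26 ± 0.0629) and *Jmjd6*, an arginine demethylase and lysyl hydroxylase, lower (-0.29 ± 0.0563) at 11% O2 in monomer mice. Neither was called in PFF mice, where they changed by -0.03 and -0.00.

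*Mxi1* (chromosome 19) encodes a MAX partner that opposes MYC, and was the flattest of the 10 over both comparisons. Monomer mice had 31.6, 37.1 and 42.2 TPM at 21% O2 and 31.4, 38.1 and 39.8 TPM at 11%, and PFF mice 30.9, 35.4 and 41.1 TPM at 21% and 33, 36.4 and 41.2 TPM at 11% O2. The ranges overlapped almost wholly, with log2 fold changes of -0.01 ± 0.0538 and 0.02 ± 0.0513. The batches differed more: PFF mice at 11% O2 changed by -0.07, 0.20 and -0.05 in batches 1, 2 and 3. With PFF at 21% O2 the change was 0.11 in batch 1 and -0.18 in batch 2. Both changes of batch 2 were without overlap, as was seen for 9.84% and 5.73% of all genes. The related *Mxd4* was lower in monomer mice at 11% O2 (-0.37 ± 0.0576, edgeR adjusted p = 2.44e-05) and was not called in PFF mice (-0.01 ± 0.0549). It was the only one called of 10 other genes of the MYC and MAX network tested.

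*Ndrg1* (chromosome 15), a gene of differentiation and stress that is also high in myelinating glia, varied most between mice among the other 6. Monomer mice had 134.5, 151.1 and 190.8 TPM at 21% O2 and 132.0, 159.9 and 217.2 TPM at 11%, and PFF mice 109.8, 146.9 and 178.9 TPM at 21% and 117.3, 143.2 and 174.7 TPM at 11% O2. The ranges overlapped, and the log2 fold change was 0.07 ± 0.0754 in monomer and 0.02 ± 0.072 in PFF mice. The paralogs *Ndrg2*, *Ndrg3* and *Ndrg4* were not called either, with log2 fold changes between -0.08 and 0.02 in monomer and between -0.10 and 0.06 in PFF mice. Of 10 oligodendrocyte markers 3 were called higher in monomer mice at 11% O2, and their summed level overlapped between all groups.

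For the genes not called, the intervals bound the change, but they leave out the uncertainty of the batch correction. At 11% O2, the 95% interval lay within 0.25 on the log2 scale in either direction for 6 of the 10 genes in monomer mice and for 8 of 10 in PFF mice, where it did so for 55.2% and 67.4% of all genes tested. In PFF mice 8 of the 10 genes had positive values and 4 an unadjusted p under 0.05 (*Ankrd37*, *P4ha1*, *Kdm3a* and *Bnip3*), beside 6950 and 1588 of the 14839 genes tested. In monomer mice 6 of the 10 were positive and 4 had an unadjusted p under 0.05, the 4 that were called, beside 7110 and 4108 of all genes. Within batches the log2 changes of *Bnip3*, *Bnip3l*, *Higd1a*, *Kdm3a*, *Mxi1* and *Ndrg1* were between 0.00 and 0.05 in monomer mice of batch 1. In PFF mice they ranged from -0.07 to 0.11 in batch 1, from -0.14 to 0.23 in batch 2 and from -0.05 to 0.18 in batch 3. In batch 2, with 3 hypoxic mice and 4 at 21% O2, *Bnip3l* (0.14), *Kdm3a* (0.23) and *Mxi1* (0.20) were higher without overlap, and with *Ankrd37* and *P4ha1* these were 5 of the 10 genes, where 9.84% of all genes did not overlap. In batches 1 and 3 it was 1 of 10 each (*Ankrd37* and *P4ha1*), where 9.05% and 3.21% of all genes did not overlap, so that none of the 6 separated there.

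Other genes of the pathway did respond in the same libraries. Of 27 other HIF targets tested, 6 were called higher and *Jmjd6* lower in monomer mice, and 3 were called higher in PFF mice. *Pdk1*, which holds pyruvate back from mitochondria, was 0.33 ± 0.0529 and 0.29 ± 0.0505 higher on the log2 scale (edgeR adjusted p = 4.12e-05 and 0.000769). *Bhlhe40*, a transcriptional repressor, was called in monomer mice (0.28 ± 0.06), and *Cited2*, which competes with HIF for its coactivator, in PFF mice (0.30 ± 0.0714). *Cited2* changed by -0.13 ± 0.0748 in monomer mice (edgeR adjusted p = 0.243). It was called lower with PFF at 21% O2 (-0.25 ± 0.0697) and was called for the interaction (0.44 ± 0.103). Its mean was 36.9 TPM in monomer and 30.6 TPM in PFF mice at 21% O2, and 33.5 and 37.7 TPM at 11% O2. The medians of these 27 genes were 0.0856 and 0.0727, beside 0.035 and 0.0574 for the 10 genes and about -0.01 for all genes tested in each comparison.

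Of 16 glycolytic targets 3 were called in each comparison, *Ldha*, *Pfkl* and *Slc16a3*, and all 16 were positive in both. The median was 0.14 in monomer and 0.163 in PFF mice. Of 9 angiogenic targets and vessel genes 7 were called higher in monomer and 6 in PFF mice, those with the smallest p being *Vegfa* (0.89 and 0.94), *Kdr* (1.15 and 0.97) and *Cxcl12* (1.36 and 0.92). The list holds endothelial genes such as *Kdr*, and the endothelial markers were higher beside it, with 7 of 8 called in monomer mice (median 0.544) and 1 of 8 in PFF mice (median 0.279). Their part in it was not tested. None of 10 HIF subunits and O2-sensing hydroxylases was called by edgeR or DESeq2, with 2 and 4 at an unadjusted p under 0.05. Named after its values were seen, *Egln1*, which marks HIF α subunits for decay, changed by 0.16 ± 0.0473 and 0.25 ± 0.0451 (edgeR adjusted p = 0.0172 and 0.00134), a size that did not pass the threshold.

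**Figure D4:**
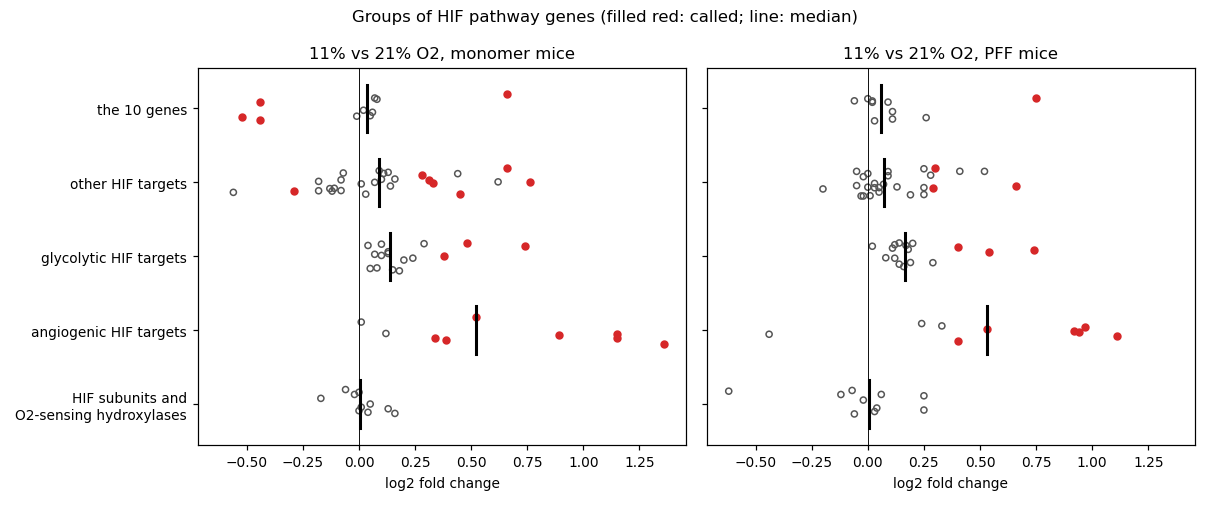
Log2 fold change at 11% against 21% O2 (x axis) of the 10 genes and of 4 other groups of HIF pathway genes (y axis), in monomer (left) and PFF mice (right); each point is a gene, filled red where called, and lines are medians. Of the 10 genes, *Ankrd37* alone is called higher, whereas 7 of 9 angiogenic genes in monomer mice and 6 of 9 in PFF mice are.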

How the data were processed

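Poly(A) RNA of the SN was sequenced from 48 mice. The authors aligned the reads to mm10 with STAR 2.7.5a, removed duplicates with Picard 2.21.9 and deposited counts per gene of GENCODE vM24 from featureCounts 2.0.1, which ignored strand and counted multi-mapping reads at the primary alignment. They left out 6 mice after principal components analysis, corrected the other 42 with ComBat-seq, and deposited the corrected counts and TPM beside the uncorrected ones. Duplicate removal can lower the counts of abundant transcripts.

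For the tests, edgeR 4.0.16 (R 4.3.3) was applied to the corrected counts, with TMM, filterByExpr by group and a quasi-likelihood fit to the 4 groups without a batch term. Such a fit leaves out the uncertainty of the batch correction, so its SEs, intervals and p values can be too small. For O2 in monomer mice it called 694 genes higher and 379 lower. The counts before correction with a batch term gave 437 and 220 in the same 42 mice. The SE was obtained as the size of the log2 fold change over the root of F. Values within batches come from the counts before correction. On simulated counts for 11% against 21% O2 in monomer mice, 42 of 50 genes at a log2 change of 0.5 and 44 of 50 at -0.5 were called, among 14810 genes. The simulation held no batch effect and no batch correction, so these rates leave out the error from both. Gene positions were read from GENCODE vM21 by identifier, and promoters from RefSeq.

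The 10 genes and all gene lists were chosen with earlier results of these data known. Of other genes, the text names for each called gene the 3 with the most similar group means, up to 3 called genes of a list with the smallest p for O2, paralogs, genes that overlap a target, and *Th*, *Mbp* and *Cldn5*. Genes that break this rule are marked. The alternatives tried were a DESeq2 1.42.0 test, DESeq2 size factors within edgeR, omitting the filter, the adjusted p alone, only the groups compared, the counts before correction with or without a batch term, each batch alone, a replicate block, and limma 3.58.1 on log2(TPM + 1) or log2(TPM + 0.1), the former also with a minimum mean TPM of 1. The test of a batch by injection interaction was chosen after seeing the data.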

Additional observations from a re-analysis of the deposited data

Results flagged for a closer look

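*Ddit4* in monomer mice at 11% O2 had a mouse far from the others: replicate 7 with 194.1 TPM, where the next mouse had 150.8. Of the 20 sets of values tested in this way, from the 2 groups with 9 or 10 mice, this was the only one, and chance gives about 1 in 20. The O2 response differed between the injections for *P4ha1* (0.70 on the log2 scale, PFF minus monomer) and for *P4ha2* (0.52), by the interaction term of edgeR. Batch 1, the only batch with every group, called neither gene for this term when fitted alone. For both, the mean of monomer mice at 21% O2 stood above those of the other 3 groups, with overlapping ranges. For *P4ha1*, the mean of PFF mice at 21% O2 (50.9 TPM) also stood below those of PFF (60.7 TPM) and monomer mice (61.3 TPM) at 11% O2. The causes of these levels were not tested.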

How the results depend on the processing

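The counts of called genes were recomputed under 15 alternatives. At 11% against 21% O2 the count in monomer mice was 1 with batch 1 alone (*Ddit4*), that in PFF mice was 0 with batch 1, 2 or 3 alone, and that averaged over both injections was 1 with limma on log2(TPM + 1), with or without a minimum mean TPM of 1. For PFF against monomer at 21% O2 and for the interaction, batch 1 alone gave 1 (*Ddit4*) each. Each batch holds 3 to 7 mice a group, and no value was had where a batch lacks a group compared. The fits of all batches to the counts before correction did not call *Ddit4* for O2 in monomer mice. Of 800 fold changes of the 10 genes under these alternatives, 17 were no longer called, 3 became called and no called value changed sign, while 47 of 640 uncalled ones did. Mice with the same replicate number had a median correlation of 0.00335, beside -0.0142 for other numbers, and 21 of 54 pairs correlated above 0.1. A replicate block gave 4, 1, 2, 3, 0 and 2 called genes for O2 in monomer mice, O2 in PFF mice, O2 averaged, PFF at 21%, PFF at 11% and the interaction, the same counts as without it. The paper describes a matched-pairs design, but the replicate numbers are not known to follow its pairs. Some mice of the same number come from different batches, so neither check could show that pairing. Counts of 43 to 145 limit the precision for *Ankrd37*.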

Other observations

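*Ddit4* is also a target of ATF4, the effector of the integrated stress response. Of 16 ATF4 genes none was called in any comparison by edgeR or DESeq2, with 5 and 3 at an unadjusted p under 0.05 for O2 in monomer and PFF mice, and their median log2 fold change at 11% O2 was -0.0191 in monomer and -0.0738 in PFF mice. Of 15 clock genes, *Per2*, *Per1* and *Nfil3* were called lower in monomer mice and *Per3* lower in PFF mice.

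The 6 mice that the authors left out had their own values before correction. *Ankrd37* was at 8.4 TPM in the monomer mouse at 21% O2, at 12, 13.2 and 15.8 TPM in the 3 monomer mice at 11% and at 12.6 and 18 TPM in the 2 PFF mice at 11% O2. *P4ha1* was at 92.9 TPM in the monomer mouse at 21% O2 and between 49.6 and 65.2 TPM in the 5 hypoxic mice. Of the genes not called, *Ndrg1* was at 155.7 TPM in the monomer mouse at 21% O2. It was at 166.9, 202.6 and 216.1 TPM in the monomer mice at 11% and at 94.4 and 177.9 TPM in the PFF mice at 11% O2. *Bnip3* was at 123.4 TPM in the monomer mouse at 21% O2 and between 113.5 and 126.9 TPM in the 5 hypoxic mice.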
